A study of Mus musculus with 6 samples.

Results

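ONECUT3-OE FLAG regions at kinetochore, centromere and spindle checkpoint genes are described here. The genes are 42 of the 21887 protein-coding genes of the RefSeq table of GRCm38, and they were chosen by function, by name. Every name was found in the table. The cells were mouse embryonic fibroblasts (MEFs), primary cells from C57BL/6 embryos, in which doxycycline at 100 ng/mL switched on ONECUT3, a homeobox transcription factor with a CUT domain, from a tetracycline-inducible retroviral system. ChIP-Seq with a FLAG antibody was performed on such cells in 3 replicates. A FLAG library of MEFs given no doxycycline, and an input and an IgG library of ONECUT3-OE cells, were not analysed here, so that background binding of the antibody is still contained in the values. The cell type itself cannot be checked against markers in a ChIP-Seq peak list.

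The kinetochore is built on centromeric chromatin, in which the histone H3 variant CENP-A is placed by its chaperone HJURP after licensing by the Mis18 proteins. The constitutive centromere-associated network (CCAN) binds this chromatin and carries the KNL1, MIS12 and NDC80 complexes, which grip spindle microtubules, with the SKA complex strengthening that grip. The RZZ complex and Spindly bring dynein and the checkpoint proteins Mad1 and Mad2 to kinetochores, and the spindle checkpoint delays anaphase until every chromosome is attached. Mitotic genes often carry CCAAT boxes, bound by NF-Y, and the cell cycle genes homology region (CHR), bound by the DREAM and MuvB complexes. The chromosomal passenger complex corrects faulty attachments at this structure, and its genes are not among the 42.

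The 3 lists held 31600, 12856 and 24822 peaks in replicates 1, 2 and 3. The fold of a peak divides its summit pileup by the background expected there, after adding 1 to both. Median folds were 3.03, 3.79 and 3.18, and q of at most 0.05 was reached by 33.6%, 71.0% and 47.7% of peaks. Sequencing depth is unknown. A median pileup of 10 fragments in replicates 1 and 3 means that a typical peak rests on few fragments. Of 50844 merged regions, 5114 (10.1%) had a peak in all 3 lists and are called shared. Whether the replicates came from separate cultures is not given in the sources used here, and their spread may be technical.

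Of the 42 members, 6 (14.3%) carried a shared region no farther than 3 kb from an end of the gene, beside 5.31% of the 21845 other protein-coding genes. They were Cenpl and Cenpt of the CCAN, Mis12, Spc24 of the NDC80 complex, Kntc1 of the RZZ complex and Ska2. With q of at most 0.05 required in each list, Cenpl, Cenpt, Kntc1 and Ska2 were left (4, beside 3.58%), and with a fold of at least 5, Cenpl alone (1, beside 0.815%). Within 1 kb of an end the count was 5 (11.9%), beside 3.28% of other genes. It was still 6 within 10 kb, where the other genes reached 9.83%, so the distance between the shares was smaller in the wider window. A shared region lay inside 8 members (19%), beside 9.51% of other genes, since Cenpp and Mad1l1 had one deeper inside. Counting everything inside or within 100 kb, 23 members (54.8%) had a shared region, beside 40.6% of other genes. Regions in at least 2 lists were at an end of 10 members (23.8%), beside 10.5% of other genes, and inside 11 (26.2%), beside 18.2%. A region of any list was at an end of 16 members (38.1%), beside 26.6%, and inside 21 (50%), beside 37.6%. The members were chosen with results of these data known, and no test of these shares was made.

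**Figure D1:**
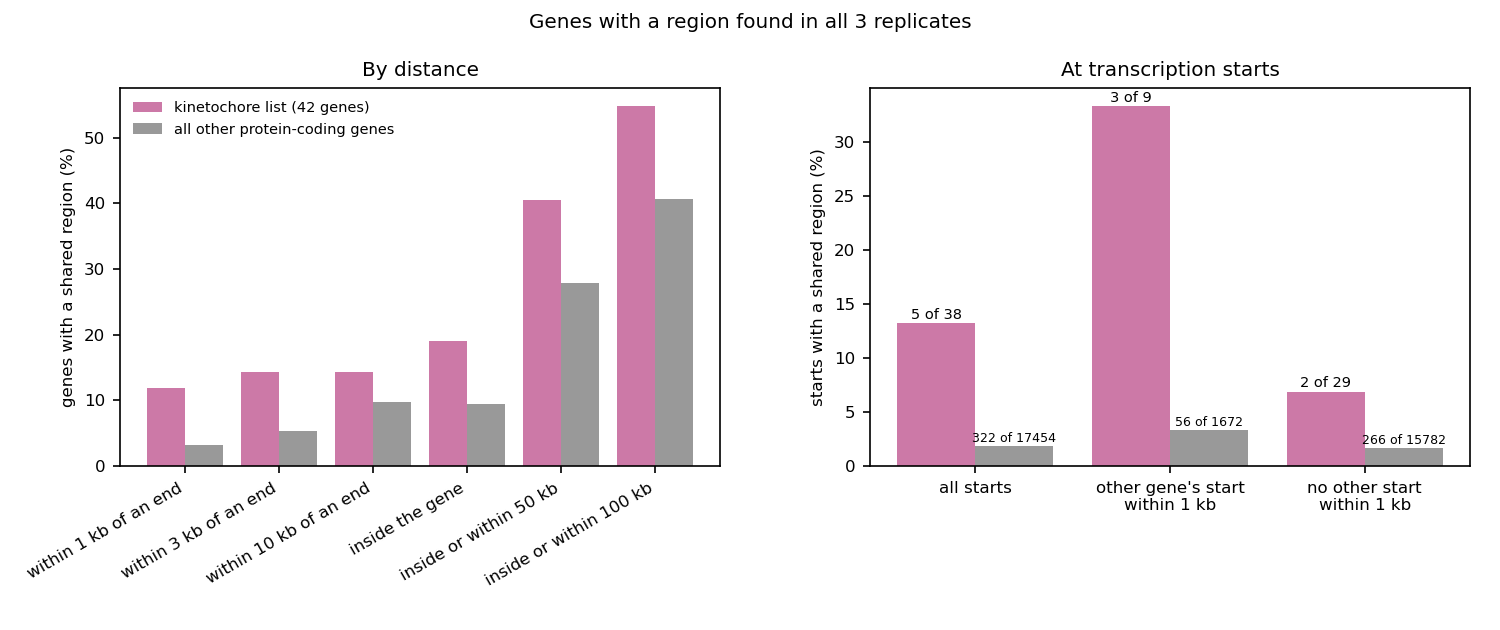
Percent of genes with a region found in all 3 replicates, in the 42 kinetochore, centromere and checkpoint genes (pink) and in all other protein-coding genes (grey). The left panel goes by distance on the x axis, from 11.9% against 3.28% within 1 kb of an end to 54.8% against 40.6% inside or within 100 kb, and the right panel takes regions over the promoter window of genes with a known start, with the counts above the bars.

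At transcription starts the shares lay farther apart. RefSeq promoter windows were matched for 38 members, and a shared region reached the window of 5 of them (13.2%), namely Cenpl, Cenpt, Kntc1, Mis12 and Ska2. Among 17454 other genes with a window, 322 (1.84%) had such a region. Spc24, Nsl1, Zwilch and Ska1 had no window in the table. At Mis12, Kntc1, Ska2 and Cenpt, an end of another protein-coding gene (Derl2, Rsrc2, Prr11 and Thap11) also lay within 3 kb of the region, so such a peak cannot be assigned to either gene of the pair. A start of another gene on the opposite strand lay within 1 kb of the start in 9 of 38 members (23.7%), beside 9.58% of other genes. Of these 9, Kntc1, Mis12 and Ska2 had a shared region at the promoter window, beside 3.35% of 1672 such other genes. Of the other 29 members, Cenpl and Cenpt had one (6.90%), beside 1.69%. These splits were made after the lists had been seen.

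Gene length differed little between the groups, with a median of 19.95 kb in members and 17.2 kb in other genes. Among genes under 10 kb, 2 of 7 members (Mis12 and Spc24) had a shared region within 3 kb of an end, beside 3.79% of other genes, and the same 2 had one inside, beside 2.05%. From 10 to 50 kb it was 3 of 28 (10.7%), beside 5.99%, both at an end and inside (7.14% of other genes inside). At 50 kb or longer it was 1 of 7 (14.3%) at an end, beside 6.50%. Inside, these longest members had a shared region in 3 of 7 cases (42.9%), beside 25.8% of other genes as long. Without chromosome 19, which holds none of the 42 genes, 5.14% of other genes had a shared region at an end, and without olfactory receptor genes 5.58%.

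Cenpl, a CCAN subunit that binds CENP-A chromatin together with Cenpn, had the strongest region of all the members. The region spans 161070597 to 161071027 on chromosome 1 and covers the start of the gene. In replicates 1, 2 and 3 the folds were 8.59, 7.001 and 8.83 (mean 8.14 ± 0.994, SD, n = 3), with q of 1.26e-17, 6.77e-13 and 1.64e-17. The pileup was 31 fragments over an expected 2.73 in replicate 1 and 30 over 2.51 in replicate 3. All 3 folds were at or above percentile 98.04 of their lists, and by mean percentile the region was number 72 of the 5114 shared regions. Its summits lay 19, 6 and 16 bp into the gene.

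Cenpt, which links centromeric DNA to the NDC80 complex, had a region from 105851818 to 105852320 on chromosome 8. The folds were 5.28, 3.79 and 6.79 in replicates 1, 2 and 3, with q of 2.69e-06, 0.0112 and 5.26e-10. The summits lay 79, 93 and 166 bp before the start given in the promoter table. That start is inside the annotated span of the gene, whose nearer end lay 2.77 kb from the region, and Thap11, which encodes a zinc finger protein, lies 2.78 kb from the region. Replicate 3 was the highest here and replicate 2 sat at percentile 50.1 of its list.

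Mis12, the name-giving subunit of the complex that joins the inner to the outer kinetochore, had a region from 71019444 to 71019716 on chromosome 11. It also lies 0.125 kb from Derl2, whose protein acts in degradation of misfolded proteins of the endoplasmic reticulum. The folds were 4.83, 5.31 and 3.13, with q of 1.39e-05, 3.38e-07 and 0.123, so replicate 3 was low (percentile 38.6) while the other two were at or above percentile 91.1. The pileup was 17 fragments in replicate 1 and 10 in replicate 3, over expected backgrounds of 2.73 and 2.51.

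Ska2, of the SKA complex that follows microtubule ends, had a region from 87108999 to 87109464 on chromosome 11, over its start and 0.285 kb from Prr11, a proline-rich gene linked to cell cycle progression. The folds were 6.98, 4.66 and 4.04, with q of 6.00e-12, 3.33e-05 and 0.00140. Replicate 1 was the highest, at percentile 99.4 with 25 fragments over 2.73, and the other lists put the region at percentiles 80.5 and 80.4. Its summits were within 53 bp of the start in every list.

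Kntc1, which encodes the Rod subunit of the RZZ complex, had the widest of these regions, 644 bp from 123749427 to 123750070 on chromosome 5, reaching an end of Rsrc2. The folds were 6.17, 4.35 and 4.57, with q of 2.07e-09, 0.000201 and 7.50e-05. All 3 summits lay after the start, at 112, 161 and 163 bp. A further region 8.24 kb into the gene, from 123757826 to 123758161, was found in replicate 1 (fold of 3.85) and replicate 3 (fold of 4.14) and not in replicate 2.

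Spc24, a subunit of the NDC80 complex, had the weakest shared region at an end, from 21760310 to 21760642 on chromosome 9. It overlaps the higher-coordinate end of the gene, and no other gene end was within 3 kb. Its folds were 2.67, 4.66 and 3.10 in replicates 1, 2 and 3. Pileups were 9 fragments over an expected 2.74 in replicate 1 and 10 over 2.55 in replicate 3. These peaks stood at percentiles 17.6 and 36.6 of their lists, with q of 0.481 and 0.130, and that of replicate 2 at percentile 80.5 with q of 3.33e-05.

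**Figure D2:**
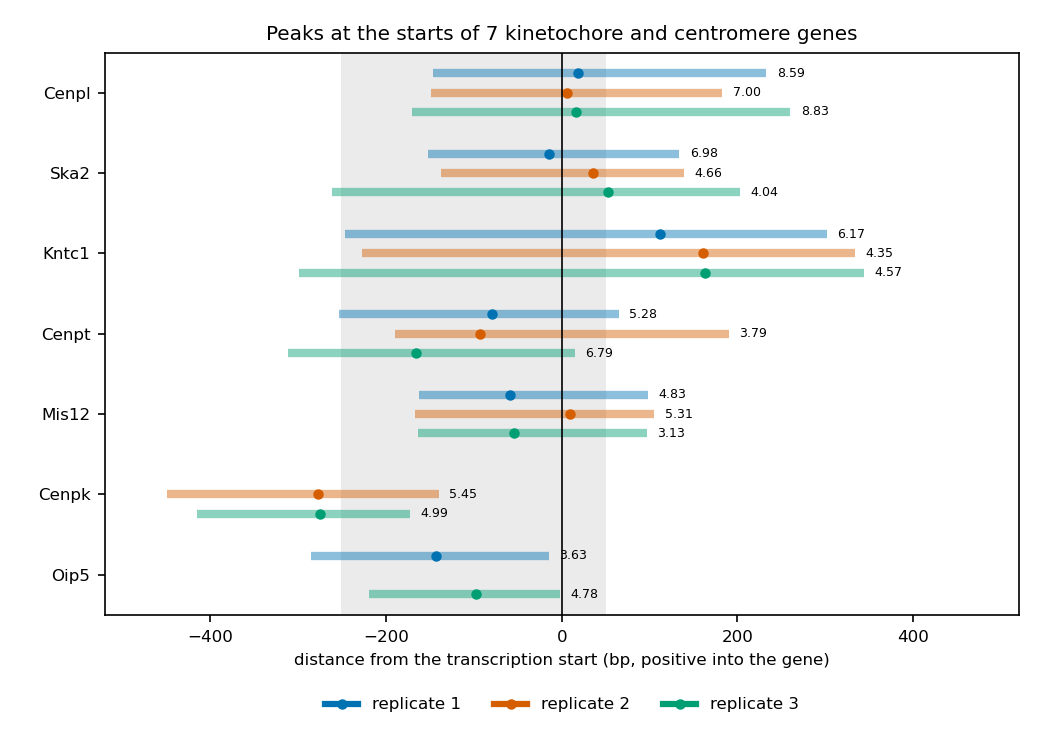
Peaks of the 3 replicates around the transcription starts of 7 members, with distance from the start in bp on the x axis (positive into the gene). Bars are peaks, circles their summits and printed values the folds, and the grey band is the promoter window. The start lies under a peak of every replicate at Cenpl, Ska2, Kntc1, Cenpt and Mis12, while Cenpk and Oip5 have peaks of 2 replicates, before the start.

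The promoter windows of 4 of these genes, which the shared regions reach, are given. The window of Cenpl is also reached and is not printed, and its matches are described below with the others. Window and peak do not cover the same bases: the CCAAT match 221 bases before the start of Mis12 lies outside the region, and those 231 and 203 bases before the start of Ska2 lie outside the peaks of replicates 1 and 2. Each runs 5′ to 3′ on the strand of the gene, from 250 bases before the start to 50 from it, from RefSeq on GRCm38.p6. Capitals mark matches on either strand to CCAAT, to the CHR cores TTTGAA and TTCGAA, to the E2F cores TTTCGCG and TTTGGCG, and to the ONECUT cores ATCGAT and ATCAAT.
Cenpt, chr8:105851959-105852258, minus strand: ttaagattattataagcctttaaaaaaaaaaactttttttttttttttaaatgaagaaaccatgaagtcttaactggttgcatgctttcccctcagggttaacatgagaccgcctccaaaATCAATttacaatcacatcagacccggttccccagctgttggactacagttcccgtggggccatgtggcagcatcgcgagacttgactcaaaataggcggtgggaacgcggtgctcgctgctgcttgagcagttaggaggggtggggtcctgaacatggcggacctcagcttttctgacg
Mis12, chr11:71019361-71019660, plus strand: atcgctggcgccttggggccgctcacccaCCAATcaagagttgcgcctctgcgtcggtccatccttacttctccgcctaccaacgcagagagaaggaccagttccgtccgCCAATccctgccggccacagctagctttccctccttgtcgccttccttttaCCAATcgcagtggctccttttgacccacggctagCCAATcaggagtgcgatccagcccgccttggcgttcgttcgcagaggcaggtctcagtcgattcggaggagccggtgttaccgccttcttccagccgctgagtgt
Ska2, chr11:87109011-87109310, plus strand: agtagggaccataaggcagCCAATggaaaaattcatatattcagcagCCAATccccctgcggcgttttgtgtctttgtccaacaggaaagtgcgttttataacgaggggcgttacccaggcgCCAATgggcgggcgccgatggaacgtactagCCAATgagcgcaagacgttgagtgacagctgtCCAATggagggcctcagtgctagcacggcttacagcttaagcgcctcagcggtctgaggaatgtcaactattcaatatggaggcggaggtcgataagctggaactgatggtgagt
Kntc1, chr5:123749476-123749775, plus strand: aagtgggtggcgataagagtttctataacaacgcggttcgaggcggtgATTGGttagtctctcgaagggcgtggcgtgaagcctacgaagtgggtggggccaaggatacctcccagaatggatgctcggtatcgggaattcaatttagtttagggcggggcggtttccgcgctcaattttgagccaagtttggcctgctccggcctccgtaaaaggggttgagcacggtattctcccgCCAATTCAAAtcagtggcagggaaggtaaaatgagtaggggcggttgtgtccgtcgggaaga

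Of the 5 windows under a shared region, 4 held CCAAT. Ska2 had 5 copies and Mis12 had 4, while Cenpl and Kntc1 had 2 each and Cenpt had none. CCAAT was found in the windows of 26 of 38 members (68.4%), beside 39.1% of 17454 other genes. A CHR core was in 21 of 38 (55.3%), beside 18.1%, and among the 5 it was in Cenpl and Kntc1. In Kntc1 the CHR core shares 1 base with a CCAAT match. An ONECUT core was in 3 members, Cenph, Cenpl and Cenpt (7.89%), near the 7.62% of other genes. Cenpl and Cenpt had a shared region there. In Cenpl the ATCAAT match begins 39 bases after the start and in Cenpt 130 bases before it, and no member held ATCGAT, which 0.877% of other genes did. An E2F core was in 2 members (5.26%), Cenpl and Cenpp, beside 3.02%. Members' windows held a median of 22 CG dinucleotides, beside 13 in other genes, at a GC content of 58.0% beside 56.3%, and the 5 windows under a shared region held 11 to 24 at 46.3% to 60.7%. Matches of these letters are a description, and the windows are shorter than some of the regions over them.

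**Figure D3:**
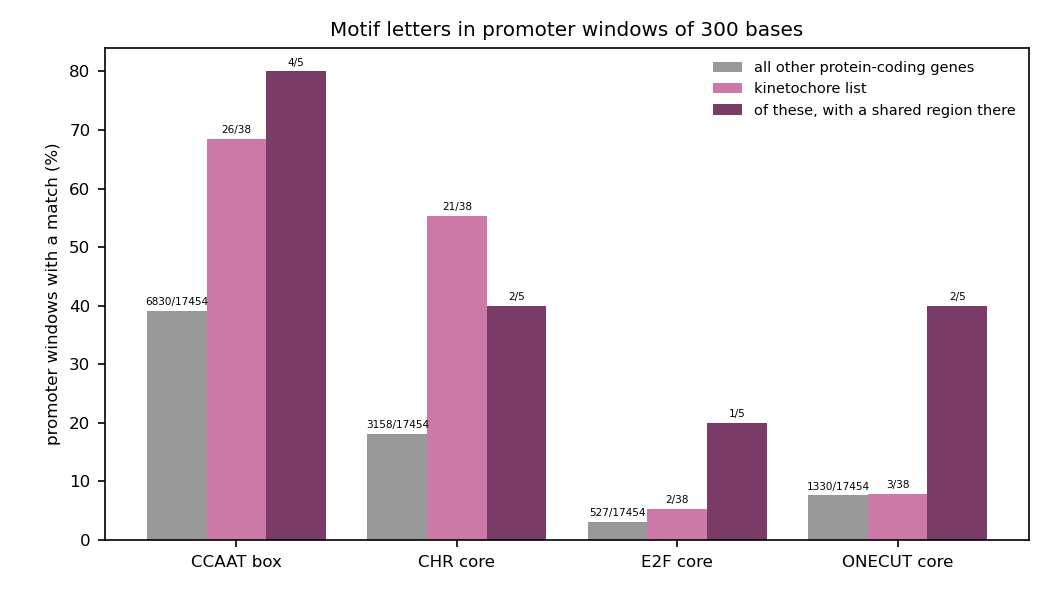
Percent of promoter windows of 300 bases with at least 1 match to the motif letters on the x axis, in all other protein-coding genes (grey), the kinetochore list (pink) and its 5 genes with a shared region over the window (dark), with counts above the bars. CCAAT (68.4% against 39.1%) and the CHR core (55.3% against 18.1%) were more frequent in the list, and the ONECUT core had a like share in both (7.89% against 7.62%), with a match in 2 of the 5 genes.

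Deep inside genes, Mad1l1 held 2 shared regions and Cenpp held 1. Mad1l1 encodes Mad1, which carries Mad2 to unattached kinetochores, and is the longest member at 313 kb. The region from 140206688 to 140207114 on chromosome 5 had folds of 4.54, 5.29 and 4.14 in replicates 1, 2 and 3, with q of 0.000257, 3.62e-06 and 0.00301. Its summits fell within 5 bp of each other. The region from 140191359 to 140191843 was even across lists, with folds of 3.63, 3.87 and 3.82 (mean 3.77 ± 0.124, SD, n = 3). They lay 114 and 130 kb from the nearer end of the gene. Another region, from 140146012 to 140146794, was found in replicates 1 and 3 at folds of 3.33 and 3.42. Cenpp, another CCAN subunit and 189 kb long, had a region from 49626848 to 49627357 on chromosome 13, about 25.5 kb after its start and 2.35 kb from Ogn, which encodes the matrix proteoglycan osteoglycin. The folds were 3.03, 3.35 and 4.14, and q was at most 0.05 only in replicate 3 (0.00301, against 0.197 and 0.122).

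Beside the 9 shared regions, 9 regions inside or within 3 kb of a member had a peak in 2 lists and 25 in 1 list. The 43 regions were thus shared in 20.9% of cases, beside 11.5% of 25776 regions at other genes. At Cenpk, whose protein belongs to the CENP-H/I/K/M group of the CCAN, the region from 104228162 to 104228471 on chromosome 13, about 0.14 kb before the gene, had folds of 5.45 in replicate 2 (q = 8.86e-07) and 4.99 in replicate 3 (q = 2.98e-05). Replicate 1 had no peak there, only a weaker peak deeper inside the gene. An end of Ppwd1 lay 0.373 kb from this region, with a start on the other strand 233 bp from that of Cenpk. Oip5, a Mis18 subunit, had a region from 119618507 to 119618791 on chromosome 2 that lies directly before the gene, with folds of 3.63 in replicate 1 (q = 0.0201) and 4.78 in replicate 3 (q = 0.000131). Its promoter window, with the start of the mitotic gene Nusap1 on the other strand 207 bp away, is shown because it holds 4 CCAAT matches under the peaks of replicates 1 and 3. Its CHR core begins 33 bases after the start, outside both peaks.
Oip5, chr2:119618456-119618755, minus strand: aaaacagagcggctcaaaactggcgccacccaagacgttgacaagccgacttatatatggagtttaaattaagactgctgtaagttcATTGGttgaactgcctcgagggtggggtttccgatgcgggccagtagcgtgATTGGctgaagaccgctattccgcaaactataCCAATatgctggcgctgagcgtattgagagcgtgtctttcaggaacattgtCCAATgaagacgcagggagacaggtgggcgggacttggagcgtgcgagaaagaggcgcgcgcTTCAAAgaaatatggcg

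Cenpc1, which ties CENP-A chromatin to the MIS12 complex, had a region from 86066667 to 86066942 on chromosome 5, 0.705 kb outside the gene, with folds of 4.59 in replicate 1 (q = 3.63e-05) and 4.42 in replicate 2 (q = 0.000154). Replicate 3 had none. Knl1, the scaffold of checkpoint signalling, had 2 regions found in replicates 1 and 3 alone, from 119081340 to 119081690 on chromosome 2 (folds of 3.94 and 4.78) and from 119107970 to 119108221 (folds of 3.65 and 3.55), and replicate 2 had no peak at the gene. The remaining regions in 2 lists, at Nuf2 of the NDC80 complex and at the checkpoint kinase gene Ttk, rested on weak peaks. At Nuf2 the region from 169505321 to 169505537 on chromosome 1 had folds of 3.03 (q = 0.197) and 2.55 (q = 0.943) in replicates 1 and 3. At Ttk the region from 83866207 to 83866458 on chromosome 9 had folds of 3.63 (q = 0.0201) and 2.55 (q = 0.943), with pileups of 11 and 7 fragments.

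Per list, 17, 16 and 16 members had a peak inside or within 3 kb in replicates 1, 2 and 3 (mean 16.3 ± 0.577, SD, n = 3). The shares of 40.5%, 38.1% and 38.1% stood beside 35.5%, 21.1% and 31.3% of other genes. The number of members with a peak was nearly level across lists, while that of other genes fell in replicate 2, the shortest list. The difference was 9.57 ± 6.46 percentage points (SD, n = 3), positive in 3 of 3 lists. A peak in each of the 3 lists was found at 9 members (21.4%), beside 15.3% of other genes, and 19 had none in any (45.2%), beside 54.6%. For 8 members there were peaks in 2 lists and for 6 in 1 list. Cenpk is the 1 gene with peaks in all 3 lists but no shared region inside or within 3 kb.

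**Figure D4:**
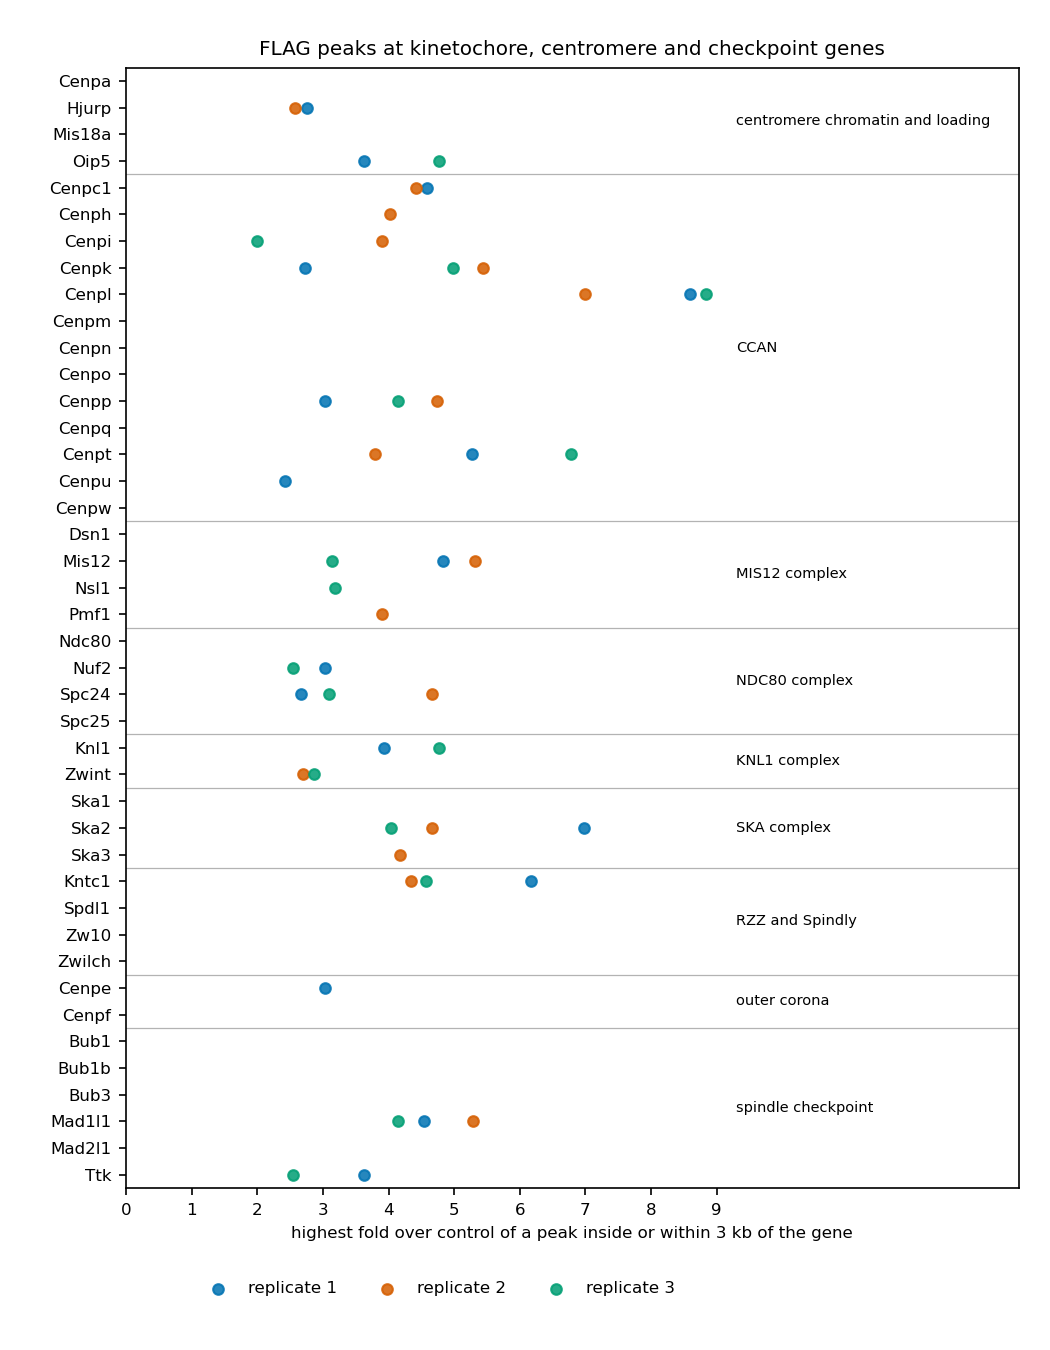
Highest fold over the control of a peak inside or within 3 kb of each of the 42 genes, on the x axis, for replicates 1 (blue), 2 (orange) and 3 (green), with genes grouped by subcomplex. A missing circle means no peak in that list, as in all 3 lists for 19 genes, and Cenpl has the highest fold in every replicate, from 7.001 to 8.83.

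By subcomplex, the shared regions at gene ends were spread over 5 of the 9 groups. The CCAN had 2 of 13 (Cenpl and Cenpt), and Cenpp had a region inside. Its other genes ranged from no peak in any list within 3 kb (Cenpm, Cenpn, Cenpo, Cenpq and Cenpw) to a peak in replicate 1 only at Cenpu and replicate 2 only at Cenph. The MIS12 complex had 1 of 4, with no peak at Dsn1 and a peak in 1 list each at Nsl1 and Pmf1. The NDC80 complex had 1 of 4, with no peak at Ndc80 itself or at Spc25. The SKA complex had 1 of 3, with no peak at Ska1 and 1 peak in replicate 2 at Ska3 (fold of 4.18). RZZ and Spindly had 1 of 4, and Zw10, Zwilch and Spdl1, the adaptor that binds dynein, had no peak in any list. The KNL1 complex, the centromere chromatin and loading genes, and the corona genes Cenpe and Cenpf, a kinesin and a large coiled-coil protein, had none at an end. Cenpa, which encodes the CENP-A histone itself, had no peak within 3 kb, and its chaperone gene Hjurp had peaks in replicates 1 and 2 at separate places, with folds of 2.75 and 2.58.

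None of the 6 spindle checkpoint genes had a shared region at an end, beside 5.31% of other genes. Bub1, Bub1b, Bub3 and Mad2l1, which encode the checkpoint kinase Bub1, BubR1, their partner Bub3 and the inhibitor Mad2, had no peak of any list inside or within 3 kb. Of the 6, Mad1l1 alone had a shared region inside or within 100 kb, beside 40.6% of other genes. Bub3 was the 1 member with no peak of any list within 100 kb, although 91.0% of other genes had at least 1 there. The groups hold 2 to 13 genes, and no test of a difference between them was made.

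Farther out, the order of distances put the 8 members with a region inside first. Next came Spdl1 at 11.1 kb, Cenpk at 11.7 kb, Knl1 at 17.4 kb, Spc25 at 22.8 kb, Cenpe at 26.04 kb and Cenph at 27.3 kb. For Knl1, Spc25, Cenpe and Cenph, 4 of these 6, an end of another gene lay nearer to the region. The region nearest to Cenpk lies inside another gene, Ppwd1, 11.9 kb from its nearer end. The region nearest to Cenph was 0.991 kb from Cdk7, that nearest to Knl1 overlapped an end of Ccdc32, and that nearest to Cenpm overlapped an end of Srebf2, 86.2 kb away from Cenpm. The longest distances were 1658 kb at Ska1 and 2536 kb at Cenpc1. Medians by group ran from 31.5 kb in the NDC80 complex to 195 kb in the MIS12 complex, and within the MIS12 complex the genes ran from 0 to 490 kb.

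Taking in each group the gene whose nearest shared region ranked highest by fold, the regions were often far away. Pmf1 (MIS12 complex) had folds of 9.39, 5.85 and 5.41 in replicates 1, 2 and 3 at a region 294 kb off. Cenpa had 5.90, 6.04 and 7.12 at 307 kb. Nuf2 had 5.45, 6.68 and 4.78 at 527 kb, and Bub1 had 5.15, 4.63 and 5.30 at 378 kb. Spdl1 had 5.45, 5.85 and 4.78 at 11.1 kb, and Cenpe had 5.15, 6.40 and 3.82 at 26.04 kb. Zwint, which stabilises Knl1, had 3.94, 3.90 and 4.78 at 52.2 kb. Cenpl and Ska2, whose regions are at their starts, were the highest of the CCAN and the SKA complex.

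**Figure D5:**
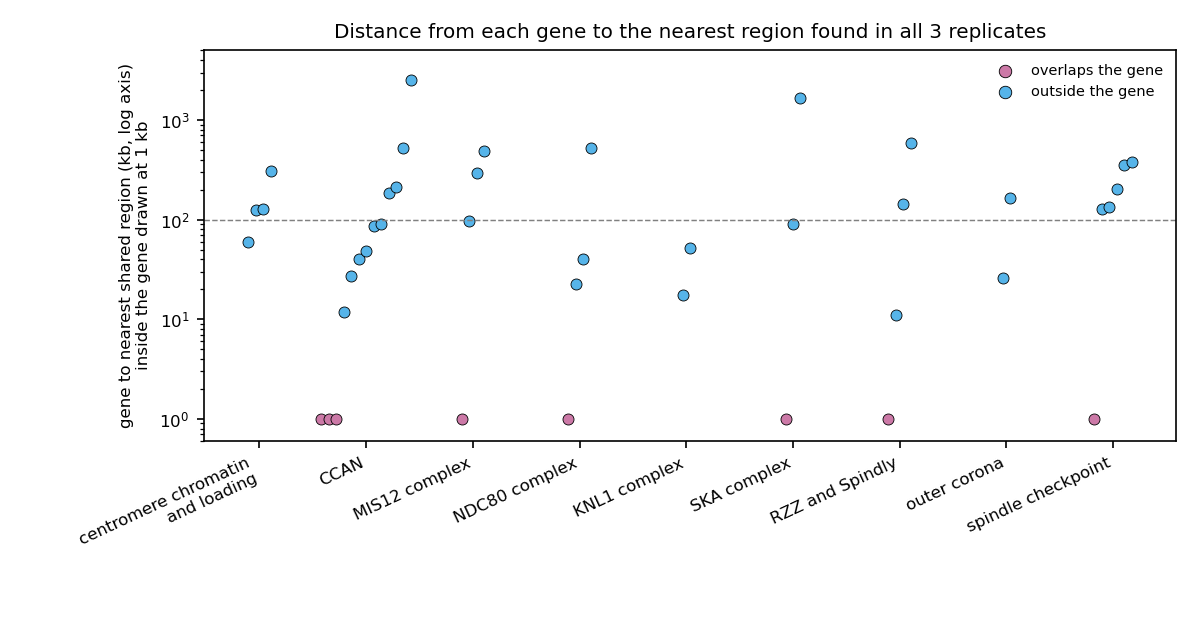
Distance in kb, on a log axis, from each of the 42 genes to the nearest region found in all 3 replicates, by subcomplex on the x axis. Genes that a shared region overlaps (pink) are drawn at 1 kb and others in blue, and the dashed line is at 100 kb. The CCAN and the MIS12, NDC80, SKA and RZZ groups reach from 0 to beyond 100 kb, and in the spindle checkpoint group only Mad1l1 is under the line.

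Among 54 other genes of sister chromatid cohesion, condensation, anaphase entry and the kinetochore, 3 had a shared region within 3 kb of an end (5.56%), near the 5.31% of other genes. Of 18 genes of the anaphase-promoting complex and its partners, the ubiquitin ligase that ends mitosis, Fzr1 and Anapc4 had one. Fzr1 encodes the activator Cdh1, and its region from 81378655 to 81379021 on chromosome 10 had folds of 7.79, 9.34 and 7.80. At Anapc4, a subunit gene, the region from 52834347 to 52834746 on chromosome 5 had folds of 3.03, 3.90 and 3.48. Of 17 genes of cohesin and its regulators, Sgo2a, a protector of centromeric cohesion, had a region from 57987606 to 57988128 on chromosome 1 with folds of 6.36, 5.01 and 5.41. None of these 3 regions reached a promoter window. None of 8 condensin genes or of 11 other kinetochore genes, such as Cenpb and Trip13, had one. Inside or within 100 kb, 28 of the 54 had a shared region (51.9%), beside 40.6% of other genes. The share in the 42 members was close, at 54.8%.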

How the data were processed

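FLAG ChIP-Seq of MEFs was analysed from the deposited lists, and the peak lists of the 3 ONECUT3-OE FLAG libraries were used. Libraries of input, IgG and control FLAG were not analysed here. Some names, and the results that need them, are not reported here. MACS was used for peak calling according to the study's methods. Without giving roles, the submitters' processing notes list the build GRCm38 and the tools MACS2 2.1.0, Bowtie2 2.2.6 and deepTools 3.3.2. By the peak names, each sample was called alone with the input as control. For read filters and depth, nothing was given in the sources used here. The deposited lists give the fold (a ratio of summit pileup to expected background, with 1 added to each), -log10 p-value, -log10 q-value, start, end and summit of every peak, and a score derived from the p-value was not used. Folds and q-values in the text are those of the authors' lists and were read within a list.

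Regions were formed by merging peaks with 1 bp or more in common, and those holding peaks of all 3 lists were called shared. Genes were the 21887 protein-coding genes on assembled chromosomes of a RefSeq table of GRCm38.p6. A region counted when any base of it was inside a gene, within 3 kb of either end, or inside or within 100 kb. Starts and strands came from RefSeq promoter windows of GRCm38.p6 (250 bases before the start and 50 from it), which matched 38 of 42 members, and the outermost start of a gene was used for motifs. Each listed start was used for calls at the promoter window. Whole-number pileups were solved from fold and p within 0.001 in -log10 p, which succeeded for 99.997% of peaks in replicate 1, 99.96% in replicate 3 and 0.179% in replicate 2, and no pileup of replicate 2 is given. Overlap, pileup and motif steps were tested on simulated data.

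The members, lists and motifs were chosen with earlier results of these data known, so lists are described by counts beside all other protein-coding genes, with no test. Every member may be named, and full values are given for members with a region in at least 2 lists inside or within 3 kb. For each subcomplex, the member whose nearest shared region had the highest mean percentile of fold is also described. Genes of the related lists are named where a shared region lay within 3 kb of an end. Alternatives were other thresholds of q and fold, other overlaps, windows of 1, 10 and 50 kb, placing by midpoint or by start, and leaving out each replicate. The promoter window, the split by neighbouring starts or gene length, and other genes without chromosome 19 or olfactory receptor genes were chosen after the lists had been seen. Computations used scipy 1.17.1, pandas 2.3.3 and numpy 2.4.6 in Python 3.11.15, and plots matplotlib 3.10.9.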

Additional observations from a re-analysis of the deposited data

How the results depend on the processing

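The 6 members with a shared region at an end numbered 7 to 8 with 1 replicate left out (beside 6.50% to 7.89% of other genes), each time with the original 6 among them, and stayed 6 under either stricter overlap. With q of at most 0.05 they were 4 (Cenpl, Cenpt, Kntc1 and Ska2, beside 3.58% of other genes), and Cenpl alone remained at a -log10 q of at least 5 (1, beside 0.861%) and at a fold of at least 5 (1, beside 0.815%). Members with a shared region inside the gene were 5, 1 and 1 under these 3 thresholds, beside 6.23%, 1.22% and 1.19% of other genes (8 to 11 with 1 replicate left out, beside 11.3% to 14.5%), and those with one inside or within 100 kb were 15, 1 and 2, where 29.6%, 7.31% and 7.02% of other genes had one, so at the stricter thresholds the members' share within 100 kb (1 or 2 of 42) was below that of other genes. Subcomplexes with a member so called at an end were 3, 1 and 1 (5 to 7 with 1 replicate left out). Members with a peak per list averaged 11.3, 3.33 and 3.33, beside 18.9%, 4.62% and 4.70% of other genes, and 15.7 and 18.3 with windows of 1 and 10 kb, beside 26.55% and 37.2%. Of the 54 related genes, 1 was called at a -log10 q of at least 5, beside 0.861% of other genes, and 1 with 50% overlap, beside 4.47%. With a window of 10 kb 8 were called, beside 9.83%. With 1 replicate left out 3 to 5 were called (5 without replicate 2), beside 6.50% to 7.89%. Fewer peaks pass a stricter threshold and fewer lists have to share a region when 1 is left out, by construction. By transcription start alone 5 of 38 members were called, beside 4.33%. No paired analysis was possible because only 1 group of libraries has peak lists and no model was fitted. The depth of the libraries is unknown, and the FLAG signal of control cells was not subtracted.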
